A study of Homo sapiens with 6 samples.

Results

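The 10 genes described here encode the 6 KMT2 and SETD1 histone methyltransferases, the KDM6 demethylases and the shared cofactors HCFC1 and WDR5, and they were taken by symbol from 23284 gene symbols listed in every sample. The tables use older symbols for the KMT2 genes, so that MLL is KMT2A, MLL2 is KMT2D, MLL3 is KMT2C and MLL4 is KMT2B. The genes were picked as a family with their response to lyophilization already known, and all differences between the groups are therefore given as a description. All 10 had a mean FPKM (fragments per kilobase of transcript, scaled to the number of mapped reads) above 1 in both groups.

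RNA was measured by poly(A)-selected, single-end RNA-Seq in GM12873, an established human B-lymphoblastoid cell line. The 3 control samples were cells taken up in Trizol straight after a wash in PBS. The 3 lyophilized samples were cells freeze-dried in 0.1 M trehalose in PBS, kept dry at room temperature for 2 weeks and then taken up in Trizol. Drying, trehalose and storage came together in each lyophilized sample and cannot be told apart. The labels number the samples of each group, and the study pairs every lyophilized sample with the control of the same number. All samples carry the genotype of a single cell line, and the spread within a group is the spread between these 3 samples. All 10 B cell markers examined were above 1 FPKM, with a sum of 4580 to 6387 in controls and 4565 to 6352 in lyophilized samples, while the 9 T cell and monocyte markers were below 1 in every sample and CD3G and the erythroid gene HBB were at 0. Of 5 epithelial and fibroblast markers, KRT18 alone reached a mean of 1, and their sum was 1.26 to 1.82 in controls and 1.28 to 1.56 in lyophilized samples.

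Methylation of lysine 4 on histone H3 marks active promoters and enhancers. SETD1A and SETD1B place much of the trimethyl mark at active promoters, MLL and MLL4 act at promoters of developmental genes, and MLL2 and MLL3 place the monomethyl mark at enhancers. Each enzyme works in a complex around WDR5, HCFC1 joins the complexes of SETD1 enzymes and of MLL and MLL4, and KDM6A, which removes methyl groups from lysine 27, is a subunit of the MLL2 and MLL3 complexes. In B cells MLL2 is well known as a tumour suppressor that is often mutated in lymphoma, and KDM6B is the inducible relative of KDM6A.

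The family is made of paralogs that share protein sequence but differ in base composition. The longest coding transcript of a gene in the GENCODE annotation of GRCh37 was used to measure this. Its GC content was 46.9% in MLL and 63.5% in MLL4, 45.0% in MLL3 and 59.7% in MLL2, and 43.1% in KDM6A and 62.2% in KDM6B. The SETD1 genes were alike, at 62.3% in SETD1A and 61.4% in SETD1B. HCFC1 stood at 61.5% and WDR5 at 55.6%.

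The base composition of the paralogs can be read in a stretch of 10 codons from the catalytic domain of each enzyme, the SET domain in the methyltransferases and the JmjC domain in the demethylases. These stretches are shown because paralogs encode nearly the same residues there with different bases. They are reference sequences of the coding strand, and capitals mark a G or C at the third position of a codon.
MLL: cgCttCatCaatcaCtcGtgtgaGcctaaC
MLL4: cgCttCatCaaCcaCtcCtgtgaGccCaaC
MLL3: agGtatatCaaCcattcGtgtgcacctaat
MLL2: agGtaCattaaCcattcCtgtgcCcctaaC
SETD1B: cgCttCatCaaCcaCagCtgCaaCccCaaC
SETD1A: agattCatCaaCcaCtgCtgCacGcctaaC
KDM6A: gttccaggGagCagaacaccaggtcatcaG
KDM6B: gtGccCggCagCcgaacGccaggCcaCcaG

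In these stretches G or C ended 7 of 10 codons in MLL and 9 in MLL4, 4 in MLL3 and 6 in MLL2, 10 in SETD1B and 8 in SETD1A, and 3 in KDM6A and 8 in KDM6B. The same held over the whole aligned proteins. At the 1172 positions where MLL and MLL4 have the same residue, G or C ended 45.2% of codons in MLL and 67.4% in MLL4, and the codon itself was the same at 42.2% of positions. At the 1887 shared residues of MLL3 and MLL2 the values were 38.6% and 64.2%. The 528 shared residues of KDM6A and KDM6B gave 36.2% and 73.9%. SETD1B and SETD1A differed little, with 77.0% and 73.4% over 787 shared residues.

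Along the transcripts, the difference in composition lay in the coding sequence and the 3′ untranslated region. GC content of the coding sequence ran from 44.7% in KDM6A to 49.0% in WDR5 among MLL, MLL3, KDM6A and WDR5, and from 60.1% in MLL2 to 64.7% in SETD1B among the other 6. The 5′ untranslated regions were GC-rich in all 10 genes, from 62.5% in MLL4 to 80.2% in WDR5. WDR5, a small WD40 protein, was the exception for the 3′ untranslated region: its 1975 bases were 56.7% GC, against 30.3% in KDM6A, 34.6% in MLL3 and 43.7% in MLL.

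**Figure D1:**
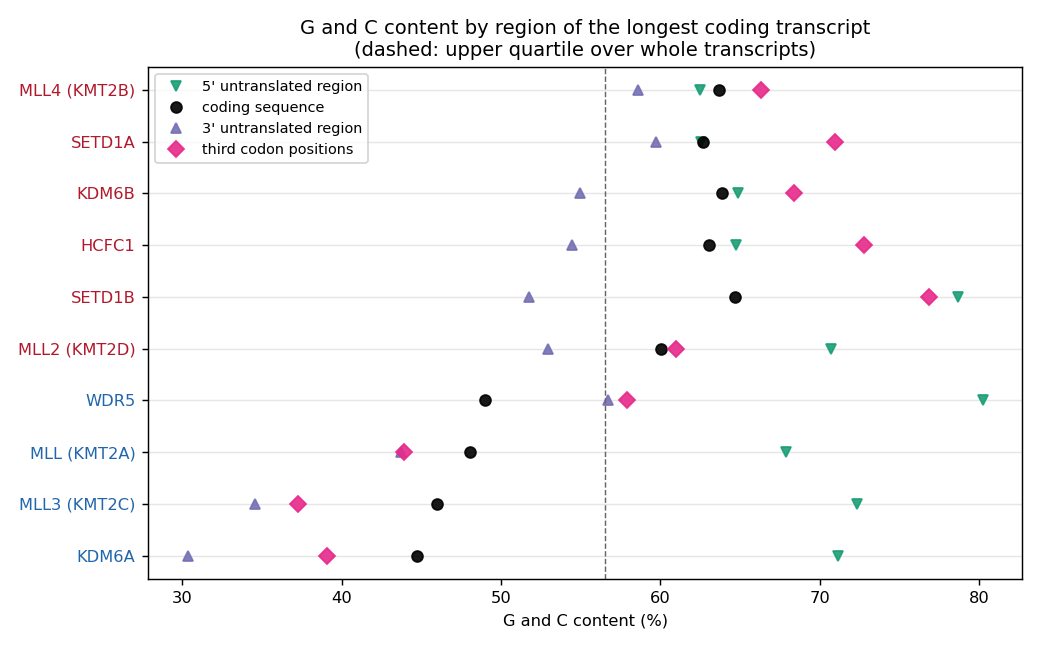
GC content in percent (x axis) of the 5′ untranslated region, the coding sequence, the 3′ untranslated region and the third codon positions for each gene (y axis, ordered by whole-transcript GC content), with red names for GC-rich long genes and blue for the others. The coding sequences fall into 2 ranges, 44.7 to 49.0% and 60.1 to 64.7%, while all 5′ regions are above 62%.

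A transcript was called GC-rich and long when both its GC content and its length reached the upper quartile over 10491 protein-coding genes tested, 56.5% and 5208.5 nt. By this rule 6 genes were GC-rich and long: MLL2 (20686 nt), HCFC1 (8876 nt), SETD1B (8557 nt), MLL4 (8485 nt), KDM6B (6728 nt) and SETD1A (6451 nt). The other 4 were MLL (16725 nt), MLL3 (16860 nt), KDM6A (6094 nt) and WDR5 (3157 nt). MLL, MLL3 and KDM6A were thus also long and missed the rule by GC content, whereas WDR5 lay just below the GC limit and was short. Among the 6, SETD1A was the nearest to the length limit and MLL2 the nearest to the GC limit. With both limits at the median, 48.1% and 3402 nt, the rule gave the same 6 genes. When the median over all coding transcripts of a gene was used for GC content and length, with limits of 57.3% and 3158 nt, 4 genes were GC-rich and long (SETD1A, SETD1B, KDM6B and HCFC1) and MLL2 and MLL4 were not.

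On hg19, the records of the GC-rich long genes lay at chr12:49412758-49449107 (MLL2, minus strand), chr19:36208921-36229779 (MLL4, plus strand), chr16:30968615-30995981 (SETD1A, plus strand), chr12:122242638-122270562 (SETD1B, plus strand), chr17:7743235-7758118 (KDM6B, plus strand) and chrX:153213008-153236819 (HCFC1, minus strand). Those of the others lay at chr11:118307205-118397539 (MLL, plus strand), chr7:151832010-152133090 (MLL3, minus strand), chrX:44732423-44971845 (KDM6A, plus strand) and chr9:137001210-137025094 (WDR5, plus strand). Each record spans the exons and introns of its gene, and its FPKM counts reads over annotated exons. Copies elsewhere in the genome touched only MLL3 and WDR5. Of all stretches of 75 bases, the read length, 1.81% of those in the MLL3 transcript were also found outside its locus, mainly on chromosomes 21 and 2, and 0.746% of those in WDR5, on chromosome 4. No stretch of the other 8 transcripts was found elsewhere.

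The tables hold no read counts, but the smallest values of genes with a single exon were whole multiples of what 1 read is worth, within 0.1 read for 94.3% to 97.5% of the values. From these steps, about 13600000, 18800000 and 22600000 reads were recovered for controls 1, 2 and 3, and 25900000, 25100000 and 20800000 for lyophilized samples 1, 2 and 3. The same scale gave an estimated 200 reads for SETD1B in the sample with fewest and 3365 for HCFC1 in the sample with most. These estimates take the length of the longest coding transcript, and shorter transcripts would mean fewer reads and a larger counting error. Counting error alone then came to between 1.72% and 7.07% of a value, and it covers neither amplification nor library preparation. The spread between controls was larger than this for all 10 genes, with a coefficient of variation from 6.94% in MLL3 to 40.7% in KDM6B.

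In control cells, the cofactors WDR5 and HCFC1 had the highest means of the family. This does not hold for every shared subunit, since RBBP5, a core subunit outside the family, was at 7.28, below MLL4. FPKM is a level per transcript length, and the genes were set in order by it. It is not corrected for GC content, and the part of GC content and annotation in this order was not tested. WDR5, the scaffold of all 6 complexes, was the highest at 18.7 ± 2.77 (SD, n = 3), followed by HCFC1, a chromatin adaptor named after its role in herpesvirus transcription, at 15.7 ± 2.43. Next were MLL4 at 8.19 ± 1.05 and KDM6B at 8.17 ± 3.32. KDM6A, MLL2, SETD1A and MLL followed at 6.21 ± 0.819, 5.89 ± 0.697, 5.77 ± 0.479 and 5.64 ± 0.596. MLL3 stood at 4.95 ± 0.344 and SETD1B was the lowest at 2.59 ± 0.338, which put WDR5 7.23-fold above it. Between neighbours in this order, the 3 controls overlapped except between HCFC1 and MLL4 and between MLL3 and SETD1B. KDM6A, MLL2, SETD1A and MLL overlapped each other and were not ranked beyond the spread of the samples, whereas every control of MLL4 lay above every control of these 4 genes and of MLL3.

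The level in controls was followed by the level after lyophilization, gene by gene. In whole cultures, fewer cells of a kind and less RNA per cell cannot be told apart. Fold changes are log2 differences of FPKM + 0.1 from a fit over all 11134 genes tested, and the small pseudocount understates the change of low genes. Each standard error (SE) in the text is from the same fit, which has no term for the pairs. Over all these genes the median log2 fold change was 0.04.

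MLL2, the enhancer methyltransferase, was lower in every lyophilized sample. It stood at 6.12, 5.10 and 6.44 FPKM in controls 1, 2 and 3 and at 2.26, 2.34 and 2.63 in lyophilized samples 1, 2 and 3. The groups did not overlap, and the mean after lyophilization was 40.9% of the control mean. The log2 fold change was -1.25 (SE 0.15), with -1.40, -1.10 and -1.26 in the 3 pairs.

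Its paralog MLL3, with a transcript of 45.0% GC, did not separate the groups. MLL3 was at 4.59, 5.00 and 5.27 FPKM in controls and at 5.26, 4.01 and 5.41 in lyophilized samples. It was higher in pairs 1 and 3 and lower in pair 2, and the log2 fold change was -0.03 (SE 0.15). The ratio of MLL2 to MLL3 within a sample was 1.33, 1.02 and 1.22 in controls and 0.430, 0.582 and 0.487 in lyophilized samples. MLL2 was thus the higher of the pair in every control and the lower in every lyophilized sample.

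MLL4, which acts at promoters in a complex with menin, was at 9.14, 7.06 and 8.37 FPKM in controls and at 3.93, 3.67 and 3.86 after lyophilization. The lowest control was above the highest lyophilized sample, and the log2 fold change was -1.07 (SE 0.14). The coefficient of variation over the 3 samples was 3.62% after lyophilization against 12.8% in controls. The estimated counting error alone was 3.45% to 3.87% in the lyophilized samples, and the difference in spread was not tested.

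MLL, the founding member of the family and a target of translocations in leukaemia, was at 4.96, 5.88 and 6.08 FPKM in controls and at 5.28, 4.74 and 5.31 in lyophilized samples. The groups overlapped, pair 1 moved up and pairs 2 and 3 moved down, and the log2 fold change was -0.14 (SE 0.13). The ratio of MLL4 to MLL was 1.84, 1.20 and 1.38 in controls and 0.745, 0.774 and 0.727 in lyophilized samples, so that the order of these paralogs also turned over in every pair.

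Both SETD1 genes were lower after lyophilization. SETD1A was at 5.27, 6.23 and 5.81 FPKM in controls and at 2.75, 3.88 and 3.53 after lyophilization, with a log2 fold change of -0.76 (SE 0.16). SETD1B was at 2.22, 2.67 and 2.88 FPKM in controls and at 0.966, 1.28 and 1.15 after lyophilization, with a log2 fold change of -1.13 (SE 0.19). Neither gene overlapped between the groups. SETD1B was the lower of the pair in all 6 samples, and its ratio to SETD1A went from 0.448 ± 0.0408 (SD, n = 3) in controls to 0.335 ± 0.0138 in lyophilized samples without overlap.

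Summed over the 6 methyltransferases, the FPKM values came to 32.3, 31.95 and 34.8 in controls 1, 2 and 3 and to 20.45, 19.9 and 21.9 in the lyophilized samples. The total was steadier between samples of a group than most of the single genes, and the groups did not overlap. In a sum the deviations of single genes partly offset each other, so the steadiness is not read as a trait of the family.

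Among the demethylases, KDM6B varied most between samples. It was at 11.7, 5.04 and 7.80 FPKM in controls and at 4.69, 2.48 and 3.50 in lyophilized samples. Sample 1 was the highest and sample 2 the lowest in both groups, and the highest lyophilized sample was only just below the lowest control. Within pairs the lyophilized level was 40.2%, 49.2% and 44.9% of the control, and the log2 fold change was -1.14 (SE 0.33). Without control 1 it was -0.85 and without control 2 it was -1.44.

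KDM6A, the subunit of the MLL2 and MLL3 complexes, was at 5.27, 6.58 and 6.77 FPKM in controls and at 6.92, 5.99 and 7.68 after lyophilization. It was higher in pairs 1 and 3 and lower in pair 2, as MLL3 was, and its log2 fold change was 0.14 (SE 0.15). The ratio of KDM6B to KDM6A was 2.21, 0.766 and 1.15 in controls and 0.678, 0.414 and 0.457 in lyophilized samples. Control 2 was only a little above lyophilized sample 1 in this ratio.

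Of the shared cofactors, HCFC1 was at 12.9, 17.0 and 17.2 FPKM in controls and at 6.17, 8.41 and 8.42 in lyophilized samples, which did not overlap. Its pairs were the most alike of the 10 genes, at 48.0%, 49.6% and 49.0% of the control, and its log2 fold change was -1.02 (SE 0.17). WDR5 was at 15.5, 20.7 and 19.9 FPKM in controls and at 13.4, 20.1 and 17.3 after lyophilization, at 86.5%, 97.0% and 87.1% of the control in the pairs. It was lower in every pair, but the groups overlapped and the log2 fold change was -0.15 (SE 0.18). The ratio of HCFC1 to WDR5 was 0.838 ± 0.0227 (SD, n = 3) in controls and 0.455 ± 0.0337 in lyophilized samples.

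**Figure D2:**
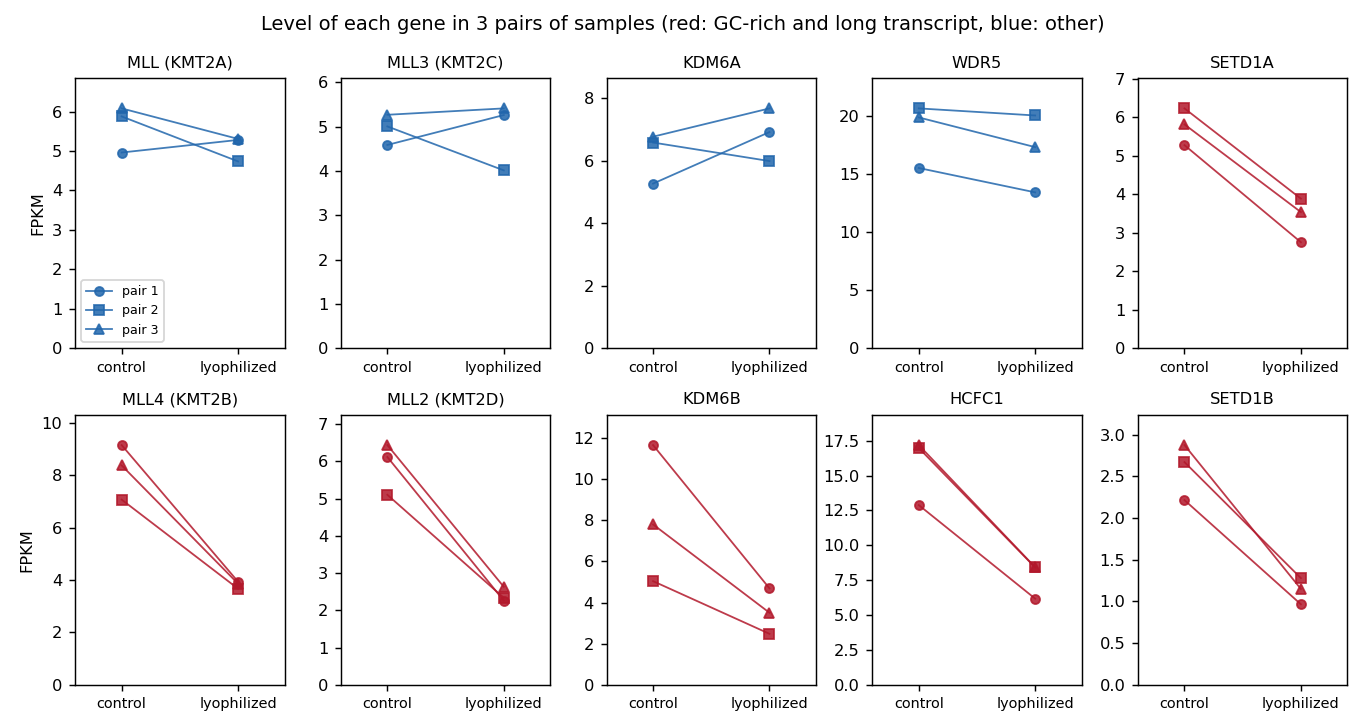
FPKM (y axis, from 0, with a scale of its own in each panel) of the 10 genes in control and lyophilized samples (x axis), with a line and symbol for each of the 3 pairs, in red for GC-rich long transcripts and blue for the others. All 3 lines fall without overlap between the groups in the 6 red panels, whereas the groups overlap in the 4 blue panels.

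**Figure D3:**
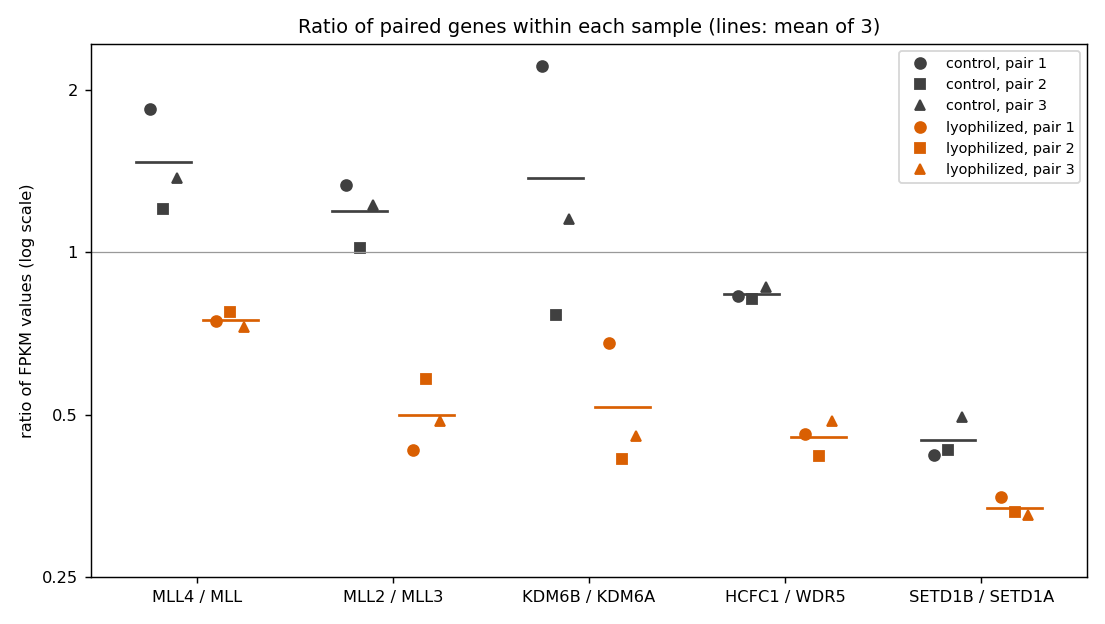
Ratio of FPKM values within each sample on a log2 axis for 5 pairs of genes (x axis), with a symbol for each of 3 pairs of samples, controls in grey and lyophilized samples in orange, and a line at the mean of 3. The ratios of MLL4 to MLL and of MLL2 to MLL3 are above 1 in all controls and below 1 in all lyophilized samples.

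The order of levels after lyophilization differed accordingly. WDR5 and HCFC1 again had the highest means, at 16.9 ± 3.33 and 7.67 ± 1.29 (SD, n = 3), and SETD1B again had the lowest, at 1.13 ± 0.158. KDM6A, MLL and MLL3 came next after HCFC1, at 6.86 ± 0.845, 5.11 ± 0.322 and 4.90 ± 0.768. MLL4 followed at 3.82 ± 0.138, KDM6B at 3.56 ± 1.11, SETD1A at 3.39 ± 0.579 and MLL2 at 2.41 ± 0.197. HCFC1 overlapped KDM6A and was below it in sample 1, and MLL overlapped MLL3. MLL4 overlapped KDM6B and KDM6B overlapped SETD1A, while the other neighbours in this order did not overlap. MLL4, above every control of MLL and MLL3 before, was below every lyophilized sample of both.

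The genes that were GC-rich and long were compared with the others. Their median log2 fold change was -1.10, ranging from -1.25 in MLL2 to -0.76 in SETD1A, against -0.08 for the other 4, which ranged from -0.15 in WDR5 to 0.14 in KDM6A. The difference of the medians was -1.02, and it was -1.30, -0.78 and -1.04 in pairs 1, 2 and 3. The summed FPKM of the 6 genes was 43.1 to 48.5 in controls and 20.8 to 23.1 after lyophilization, while that of the other 4 was 30.3 to 38.1 and 30.9 to 35.7. None of the 6 overlapped between the groups and all of the 4 did, and 12.6% of the 11134 genes tested had every lyophilized sample below every control. In all, 7 of the 10 genes were lower in the 3 pairs, which was the case for 28.8% of all genes. These counts rest on the contrast with which the family was chosen, so they describe it and nothing is read from them.

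The same contrast over all genes of like composition, with the family among them, gives the setting for these values. Of all genes tested, 251 were GC-rich and long, and their median log2 fold change was -0.49. Of these, 95.2% were lower in all 3 pairs and 71.3% did not overlap. The median was -0.18 over the 2479 genes that were GC-rich but not long, 0.14 over the 2424 that were long but not GC-rich, and 0.10 over the 5839 that were neither. MLL2 was near the lower end of the GC-rich long genes, with 1.20% of them lower still, and SETD1A was well inside, with 25.9% lower. KDM6B, SETD1B, MLL4 and HCFC1 had 4.78%, 5.58%, 6.77% and 9.16% below them. MLL, MLL3 and KDM6A lay near the medians of long genes of their GC content, which were 0.25 below 45% GC (1500 genes) and -0.01 from 45% to 50% (467 genes). The 204 long genes from 55% to 60% GC, with MLL2 among them, had a median of -0.40, and MLL2 was below it. The 118 long genes of 60% GC or more had a median of -0.67, and MLL4, SETD1A, SETD1B, KDM6B and HCFC1, which belong to them, were all below it. The family was chosen with this contrast known, so these places are a description and no excess beyond composition is read from them.

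**Figure D4:**
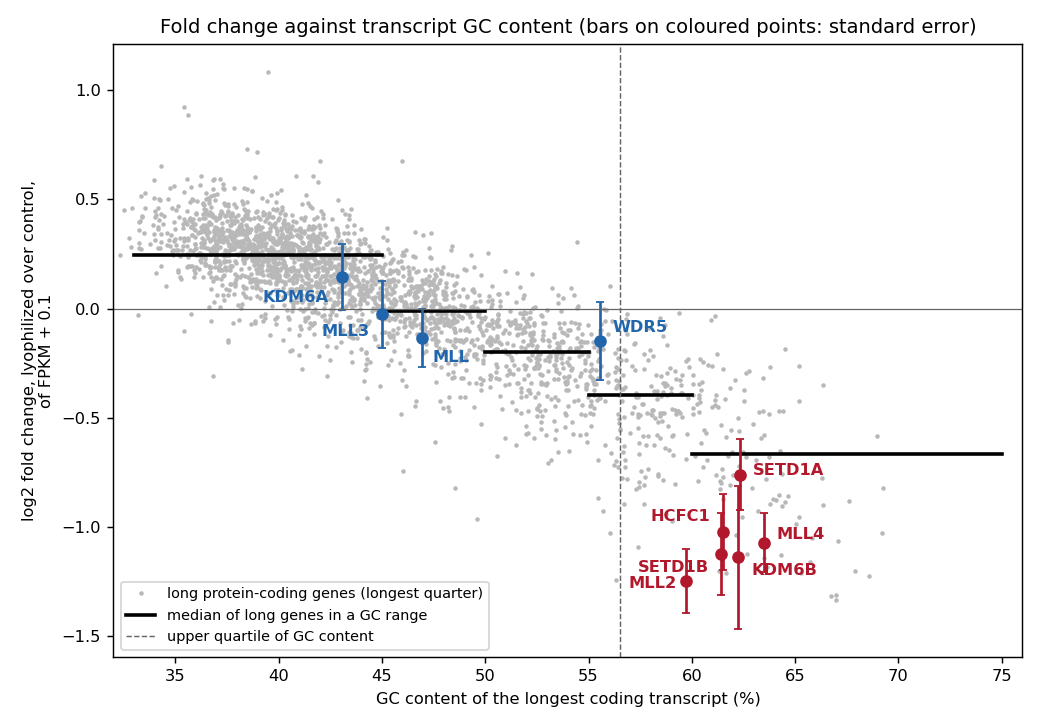
Log2 fold change of FPKM + 0.1, lyophilized over control (y axis), against GC content of the longest coding transcript in percent (x axis), with long protein-coding genes in grey, their medians in 5 GC ranges as black lines and the 10 genes in red (GC-rich and long) and blue (others) with bars of 1 standard error. The medians go from 0.25 to -0.67 with GC content, and the red points lie between -1.25 and -0.76. WDR5 is plotted although its transcript is not long.

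Across the 10 genes, Spearman's rho of the log2 fold change was -0.66 with GC content of the transcript, -0.81 with that of the coding sequence and -0.26 with length. Over 10491 protein-coding genes, rho was -0.77 with GC content and 0.05 with length, whereas among the 2623 GC-rich ones it was -0.63 with length. All of these points come from the same 6 libraries, and genes are not independent replicates.

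With limma, no replicate block and Benjamini-Hochberg adjustment at 0.05, MLL2 (adjusted p = 0.0367) and MLL4 (adjusted p = 0.0374) were among the genes called lower, so 2 of 10, beside 0.557% of all genes tested, and none of the 10 was called higher, beside 0.018%. When the sample number entered the fit as a replicate block, MLL2, MLL4, SETD1A, SETD1B, KDM6B and HCFC1 were called lower, beside 14.9% of all genes, and no family gene was called higher, beside 15.9%. The family was chosen on this contrast, and these calls are no support for it. Leaving out any of the 6 samples ended the calls of MLL2 and MLL4 in the fit without the block.

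GC content and length were then taken out of each sample by a smooth curve over all genes. With the curve over GC content alone, the log2 fold changes were -1.03 in MLL2, -0.87 in SETD1B, -0.87 in KDM6B, -0.78 in MLL4, -0.76 in HCFC1 and -0.49 in SETD1A. The curve over GC content and length together left -0.48 in KDM6B, -0.41 in SETD1B, -0.29 in HCFC1, -0.27 in MLL2, -0.23 in MLL4 and -0.12 in SETD1A. The difference between the medians of GC-rich long genes and the others went from -1.02 to -0.77 with the first and to -0.27 with the second. MLL, MLL3, KDM6A and WDR5 lay between -0.06 and 0.03 after the second correction. In these fits 6 and 5 of the 10 genes, all 6 GC-rich long genes and then all but SETD1A, were called lower, beside 6.62% and 4.05% of 10993 genes with a transcript, and none was called higher, beside 9.19% and 4.74%. GC content, length and the groups move together here, and their part in the values was not tested beyond these fits.

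**Figure D5:**
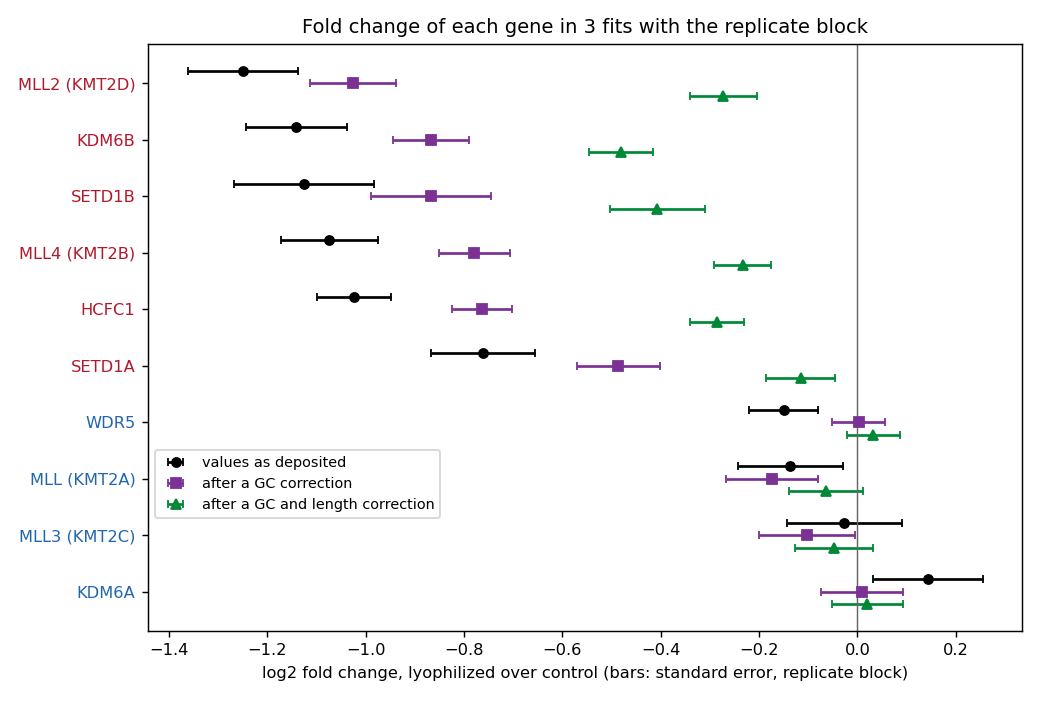
Log2 fold change, lyophilized over control (x axis), of each gene (y axis, ordered by the value as deposited) in 3 fits with the replicate block, with bars of 1 standard error. MLL2 goes from -1.25 (values as deposited) to -1.03 (GC correction) and -0.27 (GC and length correction), and in the last KDM6B has the lowest value, -0.48.

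Differences between samples of a group do not depend on the contrast between groups. The sample with the highest level of a gene had the same number in both groups for 9 of the 10 genes, against 63.3% of all genes tested, and the sample with the lowest for 6 of 10, against 69.1%. Some of these matches rest on near ties within counting error, as in lyophilized samples 2 and 3 for HCFC1 (8.41 and 8.42 FPKM) and 1 and 3 for MLL (5.28 and 5.31). The count of 9 is therefore not read as a trait of the family. HCFC1, SETD1A, SETD1B and WDR5 were lowest in sample 1 of both groups, whereas KDM6B and MLL4 were highest there. In MLL, MLL3 and KDM6A, sample 1 was the lowest control but sample 2 the lowest after lyophilization. Sample 1 also held the shallowest control and the deepest lyophilized library, and the part of depth in these values was not tested.

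The partners of these enzymes were described from 8 lists with 54 genes, of which 52 passed the filter on low values. JARID2 and SETD7 were below it. In the limma fit without the block, 0 of the 52 were called, 11 had an unadjusted p under 0.05, and the median log2 fold change was 0.07. Over all 11134 genes, 1573 had an unadjusted p under 0.05. With the replicate block, 13 of the 52 (25%) were called lower, beside 14.9% of all genes, and 7 (13.5%) were called higher, beside 15.9%. These shares of all genes are the background of the counts of each list too. Each SE given for a list gene is from the fit without the block, whereas calls with the block rest on the standard error of that fit. The calls named below are from the fit with the block and no correction. With the GC correction, 6 of the 52 were called lower and 3 higher, beside 6.62% and 9.19% of all genes. With GC and length, 2 and 2 were called, beside 4.05% and 4.74%. Some named genes went near 0 with the GC correction: CXXC1 had -0.01, EHMT2 -0.02 and MTF2 -0.03. Others did not, such as NCOA6 at -0.44 and EZH1 at -0.35.

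The core subunits of all H3K4 methyltransferase complexes other than WDR5 moved little. RBBP5, ASH2L and DPY30 had log2 fold changes of 0.11 (SE 0.15), 0.11 (SE 0.19) and 0.14 (SE 0.14), and none was called with the block. Of the subunits of the SETD1 complexes, CXXC1, which binds unmethylated CpG, had -0.26 (SE 0.13) and was called lower with the block (adjusted p = 0.0137), and WDR82, which ties SETD1A to RNA polymerase II, had 0.07 (SE 0.14). SETD1A and SETD1B were further below their controls than these subunits, but they were chosen with this contrast known and nothing is read from this.

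Among partners of MLL and MLL4, MEN1 (menin) had a log2 fold change of -0.39 (SE 0.12), with 13.1, 15.4 and 14.5 FPKM in controls and 10.00, 11.5 and 11.2 after lyophilization, and it was called lower with the block (adjusted p = 0.00471). PSIP1, which tethers menin to chromatin, had 0.33 (SE 0.19) and was called higher with the block (adjusted p = 0.0316). HCFC2, the relative of HCFC1, had 0.30 (SE 0.16) and was not called, with a transcript of 36.2% GC.

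Among partners of MLL2 and MLL3, the coactivator NCOA6 had a log2 fold change of -0.42 (SE 0.14), with 4.96, 5.91 and 6.03 FPKM in controls and 3.94, 3.95 and 4.62 after lyophilization. Its 9311 nt transcript has 47.8% GC, and NCOA6 was called lower with the block (adjusted p = 0.0143). PAXIP1 and PAGR1 (listed as C16orf53), which bind each other in the complex, had -0.03 (SE 0.21) and 0.07 (SE 0.21).

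The H3K4 demethylases, which oppose these enzymes, had a median log2 fold change of 0.01. KDM5C had -0.35 (SE 0.11) and was the only 1 of 5 called with the block (adjusted p = 0.00471), in which 14.9% of all genes were called lower. KDM5A, KDM1B and KDM1A had 0.23 (SE 0.14), 0.18 (SE 0.14) and -0.02 (SE 0.19).

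Genes of the polycomb repressive complex that methylates lysine 27, the mark that KDM6 enzymes remove, had 2 called lower and 3 higher of 9 with the block, 22.2% and 33.3% beside 14.9% and 15.9% of all genes. EZH1, the less active catalytic subunit, had -0.41 (SE 0.11) and PHF1 had -0.32 (SE 0.37, and 0.087 in the fit with the block). The core subunits SUZ12 and EED had 0.38 (SE 0.25) and 0.28 (SE 0.14), and MTF2 was the other gene called higher, at 0.25 (SE 0.19). The main catalytic subunit EZH2 had 0.07 (SE 0.22).

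Other SET-domain methyltransferases had a median log2 fold change of 0.10, and with the block 3 of 17 were called lower (17.6% beside 14.9% of all genes) and 1 higher (5.88% beside 15.9%). SUV420H2, an H4K20 methyltransferase with a transcript of 66.0% GC, had -0.53 (SE 0.13), while its paralog SUV420H1, at 39.8% GC, had 0.30 (SE 0.12), and these were the calls in each direction with the largest change. EHMT2, an H3K9 methyltransferase, had -0.27 (SE 0.12), EHMT1 had -0.23 (SE 0.13), and SUV39H2, which was not called, had 0.31 (SE 0.33).

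The other JmjC demethylases had a median log2 fold change of -0.20, with 4 of 10 called lower and 2 higher with the block, beside 14.9% and 15.9% of all genes. KDM2B, KDM4B, KDM2A and PHF8 had -0.44 (SE 0.19), -0.39 (SE 0.15), -0.34 (SE 0.10) and -0.29 (SE 0.12), and JMJD1C and KDM3A had 0.46 (SE 0.18) and 0.24 (SE 0.13). KDM4B was the only 1 of the 54 partner genes with a GC-rich long transcript, and no partner gene reached the log2 fold change of any GC-rich long gene of the family. The family was chosen with this contrast known, so nothing is read from that difference.

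Genes with levels most like those of MLL2 and MLL were sought by Pearson's r of log2(FPKM + 0.1) over the 6 samples. The 5 nearest to MLL2 were DENND4B (r = 0.999), FHOD1 (0.998), LOC729737 (0.998), PIAS3 (0.998) and EZH1 (0.996). All of them were lower in every lyophilized sample than in every control, with log2 fold changes from -1.59 in LOC729737 to -0.41 in EZH1, and the 6 points fall into 2 groups that r mainly follows. DENND4B was itself GC-rich and long, at 61.5% GC and 5728 nt. Within the family, MLL4 was the nearest to MLL2 (r = 0.988) and MLL3 was far (r = 0.128).

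Among the nearest to MLL were SCHIP1 (r = 0.987), CAMSAP1 (0.983), YEATS2 (0.976) and MRPL42P5 (0.970). These had log2 fold changes from -0.52 in MRPL42P5 to -0.08 in YEATS2 and, as in MLL, control 1 was the lowest control. The value of MRPL42P5 has an SE of 0.38 and rests on low levels, 0.60 to 1.90 FPKM. CAMSAP1 stood at 4.90, 5.81 and 6.06 FPKM in controls and at 4.97, 4.62 and 5.22 after lyophilization, close to MLL itself. With 6 samples and 11134 genes to choose from, a high r is a measure of likeness only.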

How the data were processed

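Poly(A)-selected RNA was sequenced by the authors as single-end reads of 75 bases in 3 control and 3 lyophilized samples. Per the labels and methods, reads were processed with CASAVA 1.4, mapped to hg19 with TopHat2 2.0.7 keeping uniquely mapped reads, duplicates were marked, and FPKM values were made with Cufflinks, whose version and annotation are not given in the sources used here. The authors deposited 1 table of FPKM values per sample, with 24934 records. These are not counts, and no count test was run.

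Here, each symbol was given its record of highest mean, and small RNAs were dropped. A gene whose mean FPKM exceeded 1 in either group entered limma 3.58.1 (R 4.3.3, trend, Benjamini-Hochberg, threshold 0.05) on log2(FPKM + 0.1), without a block. The study instead used the program Cuffdiff. At an FDR of 0.05, MLL2, MLL4, SETD1B, KDM6B and HCFC1 were among the genes it called lower. Loess curves (span 0.3, degree 2) over GC content or GC content and log2 length were subtracted in fits with the block. The fits without and with the block and the GC correction were tested on simulated data, but the GC and length correction was not. Read depth was estimated from single-exon genes as FPKM × (length - 200 bases). The study pairs samples of the same number, and deviations of same-numbered samples from their group means correlated at 0.72, 0.60 and 0.48 across genes. Transcripts came from GENCODE v44 lifted to GRCh37, and Python 3.11.15 was used. The members and lists were chosen with earlier results of these data known. Named are all 10 members, the genes of each partner list that were called or else up to 4 with the largest change, further list genes called with the block or paired with a named gene (added after values were seen), the 5 genes nearest to MLL2 and to MLL, and markers at 0. Some genes that this rule names are not reported here. Replicates may share technical sources, and p-values measure only the spread between these samples. Alternatives covered pseudocount, scaling, filter, trend, block, corrections, transcript choice and samples left out.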

Additional observations from a re-analysis of the deposited data

How the results depend on the processing

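Without a replicate block, limma called 64 genes (62 lower, 2 higher). The replicate block, which follows the pairing of the study, raised this to 3423 (1657 lower, 1766 higher), with a GC correction to 1738 and with a GC and length correction to 966. Of the 10 genes of the family, 2 were called without the block and 6, 6 and 5 in these 3 fits, and of the partner genes 0 and then 20, 9 and 4. Scaling the samples to the same median or upper quartile called 4 of the 10 genes under either, with 83 and 88 calls over all genes. Leaving out 1 sample gave 0 to 0 calls over all genes and over the 10 genes, with fewer samples in the fit, while 885 to 2110 genes had an unadjusted p under 0.05. Without a filter on low values 0 of 18203 genes were called, with 2069 at an unadjusted p under 0.05, and more genes were adjusted over.

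The difference between GC-rich long and other genes of the family was -0.27 instead of -1.02 with the GC and length correction, and its cause was not tested. It ran from -1.09 to -0.92 with 1 sample left out and kept its direction under every alternative tried. Of 130 alternative fold changes of single genes, 14 moved by more than the spread between replicates, all of them toward 0, in the 6 GC-rich long genes, with a GC or length correction or a pseudocount of 1. The sign changed only in MLL3 (2 times) and WDR5 (3 times), whose values lay near 0. The ratio of WDR5 to SETD1B in controls ran from 6.96 to 7.41 with 1 control left out. FPKM values of genes with several transcripts keep no exact read count, so the depth given is an estimate.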
